A study of Mus musculus with 4 samples.

Results

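The data described here are the levels of 4 genes of 21495 in the count table of mesonephros and gonad cells from mouse embryos. They are Mir17hg, the host gene of the miR-17~92 cluster, its downstream neighbours Gpc5 and Gpc6, and Mcm7, the host of the related miR-106b~25 cluster. The genes were chosen by locus and with their values by cell type and sample already known, so that the levels are descriptions and no test was run on them. Single-cell RNA-seq had been made from XY embryos with a homozygous CRISPR/Cas9 deletion of miR-17~92 at E11.5 and E11.75, called KO, from XY controls at E11.5 and from XX controls at E11.5. The XY embryos came from G4 embryonic stem cells, a C57BL/6J and 129 hybrid line, by tetraploid aggregation, the KO from edited cells and the controls from the parental line, whereas the XX controls came from crosses of C57BL/6J males with 129 females, and the strain on all 4 labels is C57BL/6 x 129S4/SvJae. Each sample was a pool of 3 to 4 pairs of gonads with the mesonephros attached, and each group was 1 sample. There is therefore no replicate check of any difference between groups. No control was sampled at E11.75, so genotype and age cannot be told apart where KO E11.75 is set against a control. Whether the edited cells were 1 clone is not given in the sources used here.

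MicroRNAs are cut as hairpins out of longer transcripts, and the mature strand guides Argonaute proteins to messenger RNAs that match its seed. The miR-17~92 cluster is a polycistron whose primary transcript is the non-coding RNA Mir17hg, known for roles in cell proliferation and organ growth. Gpc5 and Gpc6 encode glypicans, heparan sulfate proteoglycans that are tethered to the cell surface and bind growth factors. Mcm7 encodes a subunit of the MCM2-7 complex, the helicase that unwinds DNA at replication forks.

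Mir17hg (ENSMUSG00000089726) lies on the plus strand of chromosome 14 of mm10, from 115042879 to 115046727, and has 2 exons. The 6 hairpins stand in exon 2, between 115043671 and 115044506. Mcm7 (ENSMUSG00000029730) lies on the minus strand of chromosome 5, from 138164583 to 138172422, and carries miR-106b, miR-93 and miR-25 in intron 13. The mature strands below are shown because they are those of the deleted cluster and of the paralog host. Capitals mark the seed, bases 2 to 8, and the sequences are those of RefSeq for GRCm38.p6. The 6 strands of miR-17~92 hold 4 seeds.
miR-17-5p: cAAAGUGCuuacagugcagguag
miR-20a-5p: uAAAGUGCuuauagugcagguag
miR-18a-5p: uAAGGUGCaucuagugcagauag
miR-19a-3p: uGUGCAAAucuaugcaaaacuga
miR-19b-3p: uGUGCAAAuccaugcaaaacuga
miR-92a-3p: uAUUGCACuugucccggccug

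The 3 strands of miR-106b~25, from within Mcm7, are shown for comparison and share 2 of those 4 seeds.
miR-106b-5p: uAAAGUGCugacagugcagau
miR-93-5p: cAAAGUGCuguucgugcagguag
miR-25-3p: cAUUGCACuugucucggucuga

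miR-106b and miR-93 have the seed of miR-17 and miR-20a, and miR-25 has that of miR-92a, whereas the seeds of miR-18a and miR-19 are on no strand of the Mcm7 cluster. Over their whole length, seed included, miR-17-5p and miR-93-5p were identical at 19 of 23 bases, with the substitutions U10G, A11U, C12U and A13C counted from the 5′ end of miR-17-5p. miR-92a-3p and miR-25-3p were identical at 18 of the 21 bases compared, with U1C, C14U and C18U. A further paralog cluster on the X chromosome holds all 4 seeds on its 6 strands, and its miR-19b-3p and miR-92a-3p have the same sequence as those of miR-17~92, so these 2 strands are still encoded after the deletion. The miRNA genes themselves have no row in the count table, so mature miRNA levels were not analysed here.

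The libraries were made with a 3′ kit, which reads the end of polyadenylated transcripts. In the 3536-base spliced transcript of Mir17hg the hairpins lie at bases 480 to 1315, and 2221 bases follow the last of them. The polyadenylation signal AATAAA occurs 4 times in it, at base 441, before the hairpins, and at bases 1982, 3471 and 3513, after them. The last copy ends 18 bases from the annotated transcript end. UMIs of Mir17hg can thus come from sequence outside the cluster, and they do not check the deletion. The study's methods name a pair of guides for the deletion, and the cut sites are not reported here. Since the hairpins stand in exon 2, a transcript of the deleted allele differs from the annotated one, and its structure was not analysed here.

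The 4 samples held 23527 (XY control), 17057 (KO E11.5), 8492 (KO E11.75) and 3669 (XX control) cells and between 37841392 and 105192238 unique molecular identifiers (UMIs, which count captured RNA molecules). The study's text gives the counts of the KO samples for the opposite ages, and the labels of the samples and cells were followed here. The XX control cells were deeper, with a median of 15509 UMIs per cell against 3893 to 4763 in the others. Levels are given as CPM, the UMIs of a gene in each 1000000 UMIs summed over the cells named, with exact 95% Poisson intervals that cover counting error only. The authors' 13 cell types were used, and marker genes were listed for 12 of them. In samples with at least 50 cells of a type, they were higher there than in the rest in 132 of 132 checks. Sox9, Amh and Ptgds were not higher in the 2 Supporting cells of XX control, which these checks left out. Types with under 50 cells in a sample were left out of ratios, of the order of types and of figures there, namely Supporting (Sertoli) cells in KO E11.5 and XX control, and Adrenal gland and Immune cells in KO E11.75. Libraries shared at most 0.687% of the cell barcodes of the smaller one. The 3 comparisons with the XY control share that sample, and the median gene stood at log2 ratios of -0.10 (KO E11.5), 0.17 (KO E11.75) and -0.13 (XX control), which small ratios have to be read against.

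In KO samples UMIs assigned to the host gene were about 8 times as abundant as in the XY control. Mir17hg was at 19.8 CPM in XY control (interval 19.0 to 20.7, 2085 UMIs), 156 in KO E11.5 (14059 UMIs), 161 in KO E11.75 (6097 UMIs) and 18.2 in XX control (1236 UMIs). Both KO samples lay far above both controls, and the controls lay close to each other. The log2 ratio over the XY control was 2.97 (2.91 to 3.04) in KO E11.5 and 3.02 (2.95 to 3.10) in KO E11.75. For the XX control it was -0.12 (-0.23 to -0.02), near the median gene. Of the 4 genes, 1 was at least 2-fold higher in KO E11.5, where 0.471% of 14023 genes with at least 200 UMIs were, and 2 were in KO E11.75, where 2.75% of 13577 were, while none was at least 2-fold lower, beside 2.99% and 1.44% of genes. None of the 4 was at least 2-fold apart between the controls, beside 0.984% of genes higher and 1.7% lower in XX. These counts were fixed by the choice of the genes. By size of the ratio Mir17hg was number 3 among the genes measured in each KO comparison.

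The share of cells with a Mir17hg UMI was 8.08% in XY control, 51.2% in KO E11.5, 46.4% in KO E11.75 and 25.2% in XX control. Depth moves such shares, and the XX cells were the deepest. After every cell had been thinned to 3000 UMIs, leaving out 6279, 1817, 2425 and 67 shallower cells of these samples, the shares were 5.51%, 36.0%, 36.7% and 5.47% in the same order. At equal depth the controls thus gave shares close to each other and the KO samples more than 6 times that share. The highest count in a single cell was 4 UMIs in XY control, 13 in KO E11.5, 8 in KO E11.75 and 7 in XX control.

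The higher level held in every cell type with enough cells. Mir17hg was above the XY control in 12 of 12 types in KO E11.5 and in 11 of 11 types in KO E11.75, with intervals that left out equal levels, and by at least 2-fold in each. Summed over the types, 0.314% of genes with at least 200 UMIs in a type were at least 2-fold higher in KO E11.5 and 1.91% in KO E11.75, and 0.763% and 0.952% were at least 2-fold lower. The gene was chosen for these values, and nothing further is read from the counts. The log2 ratio was lowest in primordial germ cells (PGCs), at 1.58 and 1.97. It was highest in the Adrenal gland at E11.5, where the fold was 13.9, and in Bipotential progenitors, the precursors of the supporting lineage, at E11.75, where it was 11.4. The Adrenal gland of XY control was at 10.3 CPM (5.61 to 17.2), with 9 UMIs in run 1 and 5 in run 2. Adenosympathic cells followed at E11.5 with a fold of 10.8, so the place of the Adrenal gland is not firm. In the XX control the interval of the ratio held 0 in 11 of 12 types, with Endothelial cells at -0.70 (-1.44 to -0.06) as the exception, which was lost without XY control run 2, at -0.62 (-1.42 to 0.14), and without XX control run 1, at -0.71 (-1.72 to 0.09).

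**Figure D1:**
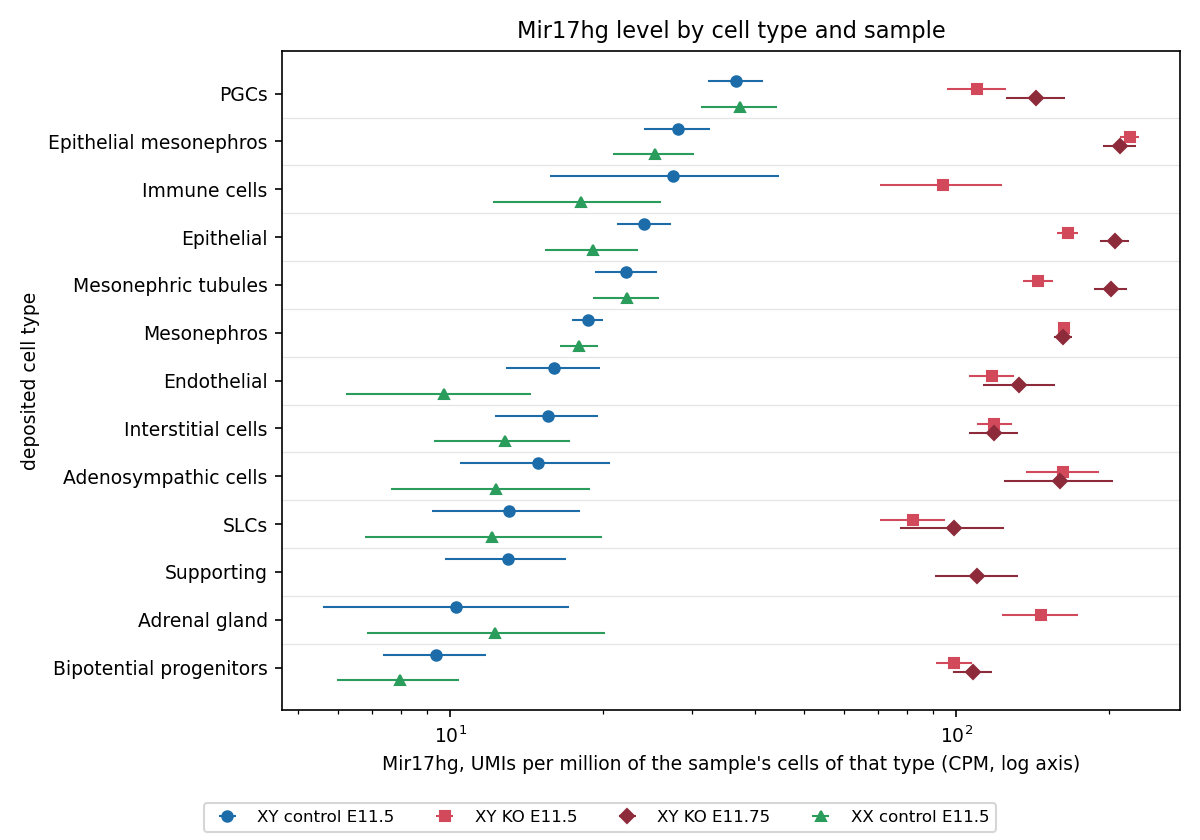
Mir17hg in each cell type and sample, in CPM on a log axis, with exact 95% Poisson intervals from counting error. Both KO samples lie above both controls in every type shown, and PGCs have the highest level of the controls.

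In the controls PGCs had the most Mir17hg and Bipotential progenitors the least. PGCs stood at 36.7 CPM in XY control (256 UMIs) and 37.4 in XX control (135 UMIs). Bipotential progenitors stood at 9.39 (74 UMIs) and 7.96 (54 UMIs). Neighbours in the order of types were mostly not resolved by these counts. None of the 12 pairs of neighbours in the XY order was apart beyond counting intervals. In the XX order 1 of the 11 pairs was, namely PGCs and Epithelial mesonephros. Epithelial mesonephros followed PGCs at 28.2 and 25.4 CPM, and Mesonephros, the mesenchyme and largest type, was at 18.7 and 18.0.

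In the KO samples the order of the types differed. Epithelial mesonephros was highest, at 220.1 CPM in KO E11.5 (2105 UMIs) and 210.4 in KO E11.75 (666 UMIs). In KO E11.75 its interval overlapped those of Epithelial cells (205.6 CPM) and Mesonephric tubules (201.9 CPM). PGCs, the highest type in the controls, were at 110 and 144 CPM. Supporting-like cells (SLCs) were lowest of the types with at least 50 cells, at 82.1 and 98.8, though their interval overlapped that of the next type. Over the 10 types with at least 50 cells in all samples, Pearson's r of the levels was 0.96 between the controls, 0.89 between the KO samples and 0.42 to 0.68 between a control and a KO sample. The points of such a correlation share their library, so r is a description only. The log2 ratio over XY control was 1.58 in PGCs against 2.96 in Epithelial mesonephros at E11.5, and 1.97 against 2.90 at E11.75.

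The repeat runs of a sample gave the same picture. Intervals of the runs overlapped in all 13 types of XY control, all 11 of KO E11.5 and all 6 of XX control that could be compared. The lowest value in a type and run of KO E11.5 was 76.2 CPM (SLCs), and the highest in XY control was 37.7 CPM (PGCs). The runs are technical repeats of 1 pool of embryos and do not replace replicate samples. KO E11.75 had 1 run.

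**Figure D2:**
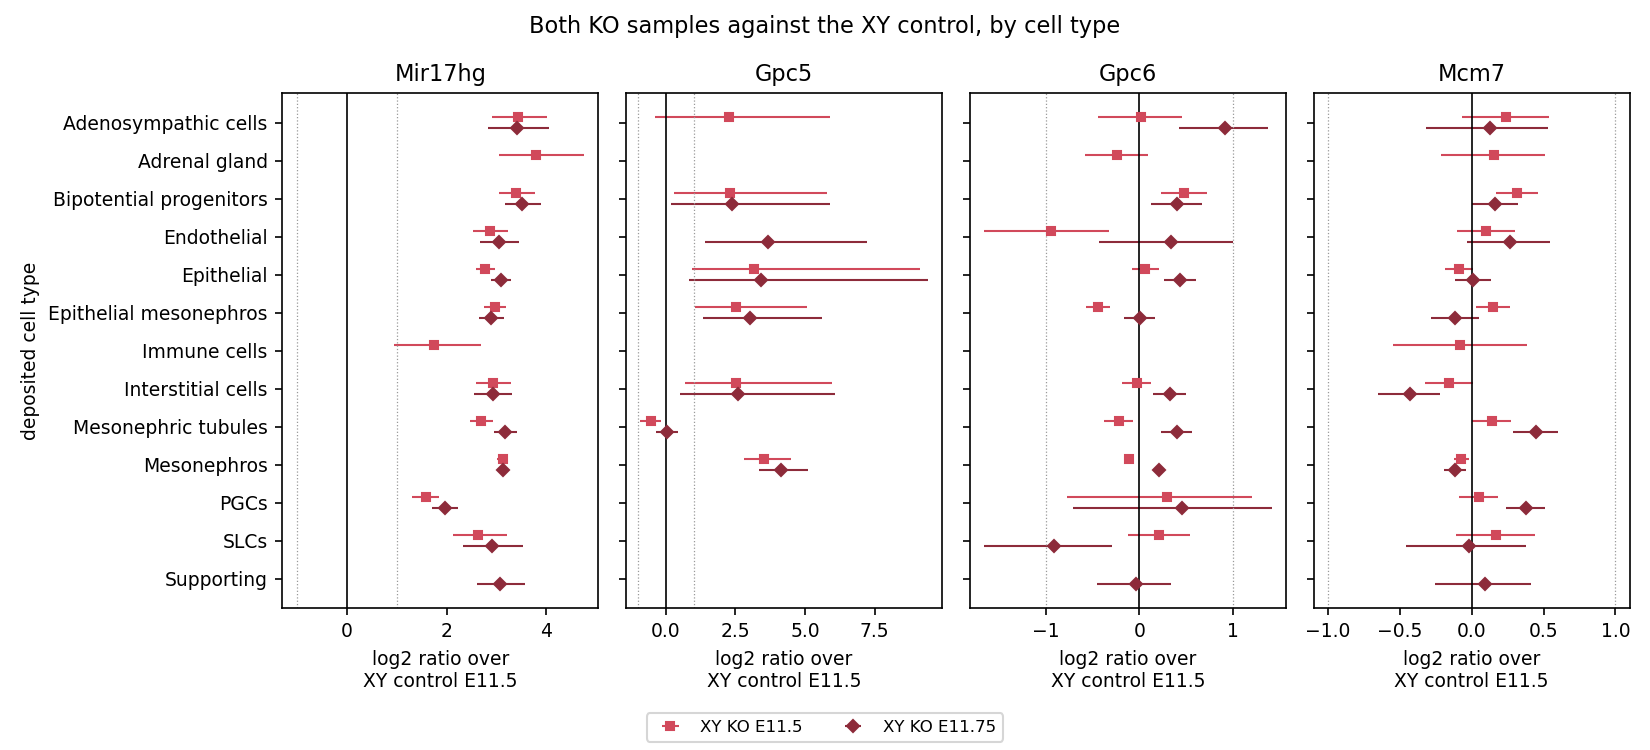
Log2 ratio over the XY control of each of the 4 genes in each cell type, with exact 95% intervals from counting error the XY control shared by both comparisons, dotted lines at 2-fold and axes that differ between the panels. Mir17hg lies above 1.5 in each type of both KO samples, whereas Mcm7 stays within 0.5 of 0 in those samples.

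Gpc5 begins 45488 bases after the end of Mir17hg on the same strand (chromosome 14, 115092215 to 116525179) and is the nearest protein-coding gene downstream. It was a low and restricted gene. Its level over all cells was 2.19 CPM in XY control (230 UMIs), 3.77 in KO E11.5 (340 UMIs), 5.55 in KO E11.75 (210 UMIs) and 1.91 in XX control (130 UMIs). The log2 ratios were 0.78 (0.54 to 1.03), 1.34 (1.07 to 1.62) and -0.19 (-0.51 to 0.12). These sums combine cell types whose shares differ between samples, and the ratio within types was quite unlike them.

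In the controls Gpc5 was a gene of the Mesonephric tubules, the epithelial tubes of the transient kidney. The tubules gave 88.7% of its UMIs in XY control (interval 83.9% to 92.5%) and 89.2% in XX control, but 27.4% in KO E11.5 and 37.6% in KO E11.75. Within the tubules the level was 22.5 CPM in XY control, 15.5 in KO E11.5, 23.4 in KO E11.75 and 14.9 in XX control. In this type the level was above that of every other type of the XY control beyond counting error. There neither KO sample was higher than the XY control by more than counting error, with log2 ratios of -0.54 (-0.91 to -0.18) and 0.06 (-0.34 to 0.43). The interval of KO E11.5 held 0 without XY control run 1, at -0.28 (-0.73 to 0.17), and without KO E11.5 run 2, at -0.43 (-0.93 to 0.02). The XX control had a ratio of -0.59 (-0.94 to -0.26). Its interval in CPM (12.3 to 17.9) lay below that of KO E11.75 (18.5 to 29.1). Within the tubules the marker genes Pax2, Pax8 and Lhx1 had log2 ratios of -0.60, -0.49 and -0.70 in XX control. In KO E11.5 they had -0.19, 0.02 and -0.16, and in KO E11.75 0.73, 0.25 and 0.43. The lower level in XX tubules was thus not particular to Gpc5.

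Outside the tubules the KO samples differed from both controls. The summed level of all other cells, a grouping made after the values had been seen, was 0.270 CPM in XY control (26 UMIs), 2.93 in KO E11.5 (247 UMIs), 3.8 in KO E11.75 (131 UMIs) and 0.233 in XX control (14 UMIs). This was 10.7-fold over the XY control in KO E11.5 (7.22 to 16.9) and 13.8-fold in KO E11.75 (9.18 to 22.3). The log2 ratio of the XX control over the XY control was -0.19 (-1.27 to 0.77). The runs gave 0.253 and 0.291 CPM in XY control, 2.88 and 2.98 in KO E11.5, and 0.274 and 0.194 in XX control, so that no run of a control came near a run of the KO.

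In the KO samples most of these UMIs lay in the Mesonephros, which held 52.0% of all cells in KO E11.5 and 45.5% in KO E11.75. There Gpc5 was at 0.327 CPM in XY control (14 UMIs), 3.93 in KO E11.5 (171 UMIs), 5.94 in KO E11.75 (86 UMIs) and 0.174 in XX control (5 UMIs). The log2 ratios were 3.54 (2.80 to 4.49) and 4.14 (3.36 to 5.11) for the KO samples, and 4.48 and 5.08 without XY control run 1, which held 11 of the 14 control UMIs. Epithelial mesonephros moved from 3 UMIs (0.488 CPM) in XY control to 31 UMIs (3.24 CPM) in KO E11.5 and 14 UMIs (4.42 CPM) in KO E11.75. Epithelial cells of the gonad held 1, 12 and 6 UMIs in the same order, and Interstitial cells 2, 15 and 8, with 13 of the 15 from run 1 of KO E11.5 and a ratio of 0.82 (-2.96 to 4.61) without that run. The control counts of 1 to 3 UMIs in these types carry wide intervals.

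**Figure D3:**
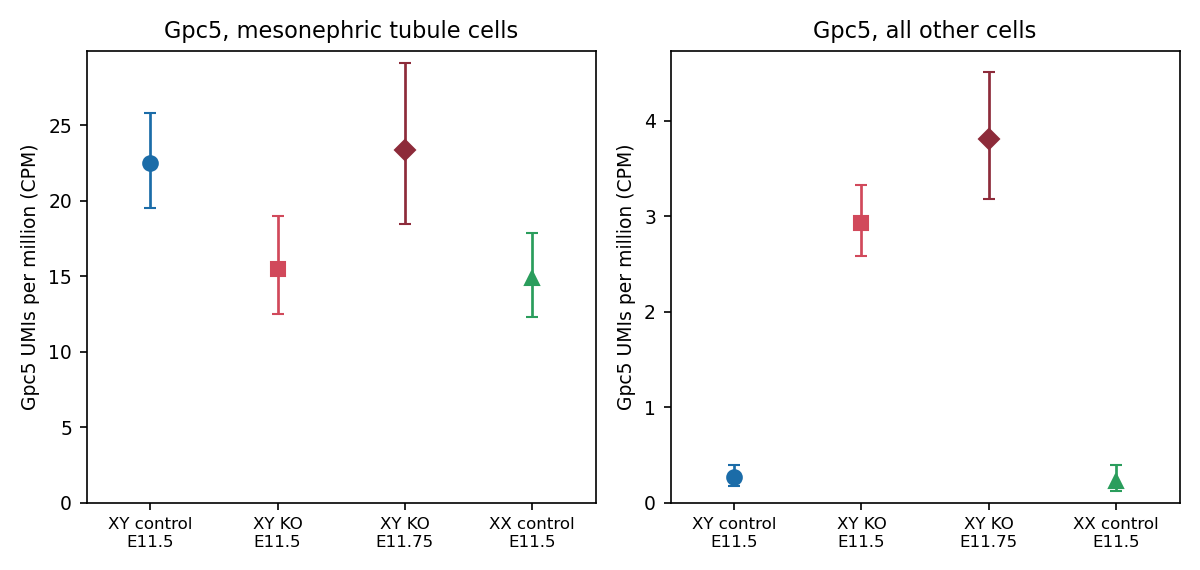
Gpc5 in cells of the Mesonephric tubules (left) and in all other cells (right) of each sample, in CPM on linear axes that start at 0 and differ between the panels, with exact 95% Poisson intervals. In the tubules the 4 samples lie between 14.9 and 23.4, whereas outside them both KO samples lie more than 10-fold above both controls.

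Few cells held the transcript. Outside the tubules, and at 3000 UMIs per cell, 0.0820% of XY control cells, 0.972% of KO E11.5 cells, 1.13% of KO E11.75 cells and 0.0615% of XX control cells had a Gpc5 UMI. Types of other lineages were compared. PGCs had 0 UMIs of Gpc5 in all 4 samples, and Immune cells had 0 in the 3 XY samples and 1 in XX control. The PGCs had a median of 12156 UMIs per cell in KO E11.5 and the Mesonephros 4586. The Poisson interval of 0 UMIs ran up to 1.80 CPM in PGCs of KO E11.5 and 2.37 CPM in those of KO E11.75. Other lineages did hold UMIs. Adenosympathic cells had 2 in XY control (0.830 CPM), 4 in KO E11.5 (4.45 CPM), 2 in KO E11.75 (4.79 CPM) and 0 in XX control. Endothelial cells had 2 (0.365 CPM), 2 (0.623 CPM), 6 (5.37 CPM) and 0 in the same order. Levels near that of the Mesonephros thus occurred in some types of other lineages in the KO samples, on few UMIs. The part of free RNA in the Gpc5 values was not tested. Tubule markers outside the tubules were also compared. Pax2, Pax8 and Lhx1, transcription factors of the nephric lineage, had log2 ratios there of -0.16, -0.39 and -1.18 in KO E11.5. In KO E11.75 they had 0.30, 0.12 and -0.06, and in XX control -0.59, -0.0050 and -1.07. Pax8 does not mark tubules alone, since in XY control it was at 139 CPM in SLCs and 78.9 in tubules.

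Gpc6 lies 1878.59 kb beyond Mir17hg (chromosome 14, 116925315 to 117976544, plus strand). It was detected in all types of the XY control, at widely different levels, and over all cells no KO sample was 2-fold from control. Over all cells it was at 133 CPM in XY control, 139 in KO E11.5, 156 in KO E11.75 and 152 in XX control. The log2 ratios were 0.07 (0.04 to 0.11), 0.24 (0.19 to 0.28) and 0.19 (0.16 to 0.23), and the first of these turned to -0.11 when the cell types were weighted as in XY control. The spread between runs of 1 sample was as large as these ratios, since the runs of KO E11.5 gave 127 and 151 CPM.

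Mesonephros had the highest Gpc6 in all 4 samples, at 220.4, 204, 254 and 232 CPM, and PGCs were lowest, at 5.30, 6.35, 7.06 and 6.92, apart from Immune cells of KO E11.5 at 0. Interstitial cells, the mesenchyme of the gonad, were also high, from 139 to 177 CPM, as were Epithelial mesonephros, from 106 to 157 CPM. The Adrenal gland was at 149 CPM in XY control, 126 in KO E11.5 and 200.2 in XX control. In XX control its interval overlapped that of the Mesonephros. Mesonephric tubules ran from 88.9 to 137 CPM, and Bipotential progenitors were at 33.2 to 53.7. Of the neighbours in the XY control order, 5 of 12 pairs had intervals that did not overlap. The order was close between samples, with r from 0.92 to 0.99 over 10 types in each pair of samples. No type was 2-fold from control in a KO sample among those for which a ratio could be given, but SLCs of KO E11.75 were under TMM scaling, a method that sets the bulk of the genes to no difference. The ratios ran from -0.95 in Endothelial cells to 0.48 in Bipotential progenitors in KO E11.5. The Endothelial value rested on run 2 of the XY control, since the control runs gave 9.22 and 21.9 CPM. Without that run the ratio was -0.19 (-1.04 to 0.68), without run 1 of the control it was -1.42, and without run 1 of KO E11.5 it was -0.61 (-1.52 to 0.13). With a run left out, 2-fold was thus passed in Endothelial cells of KO E11.5, and also in its PGCs (1.05 without its run 1). In KO E11.75 it was passed in Endothelial and Adenosympathic cells without run 2 of the control (1.10 and 1.03) and in SLCs without run 1 of the control (-1.13). In Mesonephros of KO E11.5 the runs gave 186 and 221 CPM, and the ratio of -0.11 was 0.0032 (-0.047 to 0.053) without run 1. In KO E11.75 they ran from -0.92 in SLCs to 0.92 in Adenosympathic cells.

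Immune cells were the type without a ratio in KO E11.5. Immune cells, mainly macrophages, had 29 UMIs in XY control, 0 in KO E11.5, 10 in KO E11.75 and 25 in XX control. Their totals over all genes were 581492, 562621, 228919 and 1599301 UMIs in the same order. The levels were thus 49.9, 0, 43.7 and 15.6 CPM, so that KO E11.75, on 38 cells, lay near the XY control. The shares of cells with a UMI, not thinned, were 10.9% in XY control and 14.9% in XX control. Against 0 UMIs, the KO E11.5 level was at least 9.35-fold lower than control, with 3 UMIs as the floor, and the XX control had a log2 ratio of -1.67 (-2.51 to -0.85). The median depth of Immune cells was 1488 UMIs in XY control, 7040 in KO E11.5, 5769.5 in KO E11.75 and 18870.5 in XX control. In XY control 26 of the 29 UMIs came from run 2 (79.0 CPM) and 3 from run 1 (11.9 CPM), and against run 1 alone no fold can be given for the KO sample, while the ratio of the XX control was 0.20 (-1.32 to 2.77). The part of free RNA in the values of Immune cells was not tested.

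**Figure D4:**
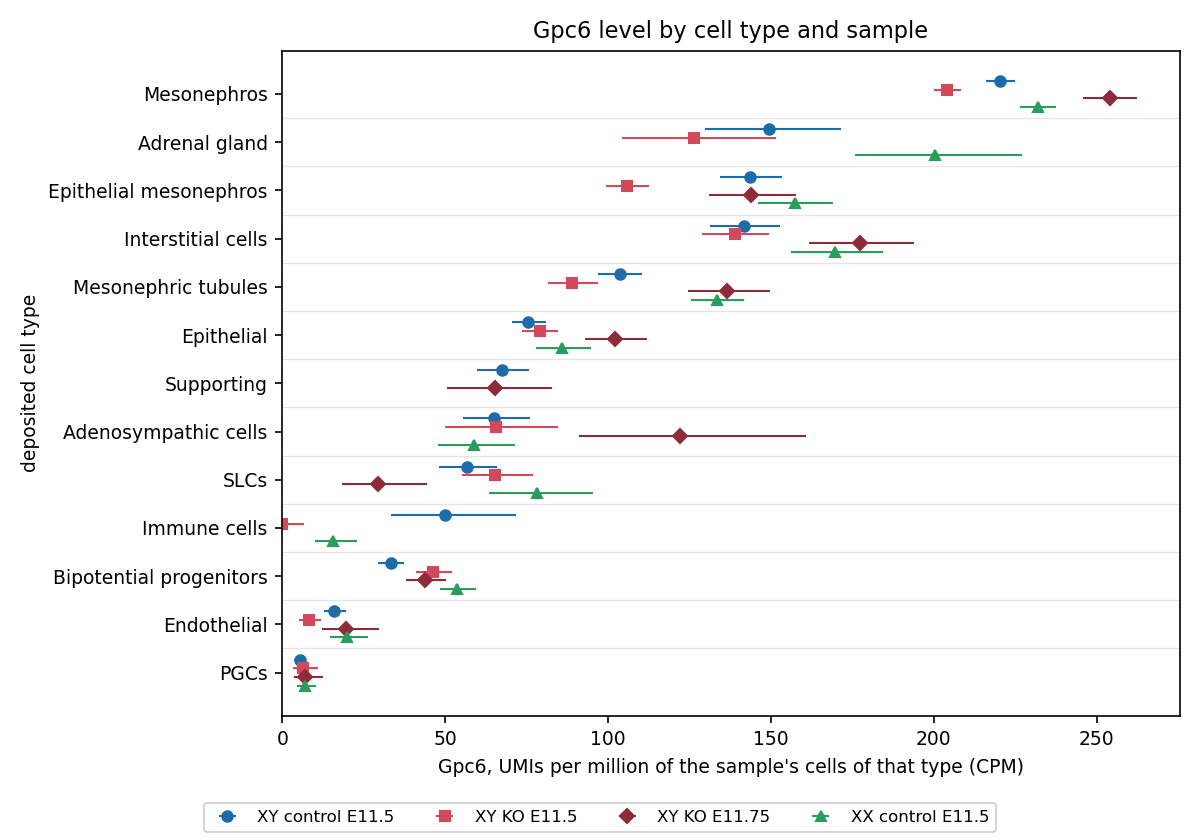
Gpc6 in each cell type and sample, in CPM on a linear axis with exact 95% Poisson intervals. Mesonephros is highest in all 4 samples, between 204 and 254, and PGCs are at the low end, between 5.30 and 7.06, with Immune cells of KO E11.5 at 0.

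The other glypicans gave the family context. Gpc1 to Gpc6 were all measured. Over all cells none was 2-fold from control in KO E11.5, while Gpc5 was in KO E11.75. Of all genes, 0.471% were at least 2-fold higher and 2.99% lower in KO E11.5, and 2.75% and 1.44% in KO E11.75. The median log2 ratio of the 6 was 0.10 and 0.27, against -0.10 and 0.17 for all genes. Gpc3, which is known for restraining growth, was at 0.42 and 0.06, and Gpc4 at -0.73 and 0.30. Of the genes within 5 Mb of Mir17hg, 84 are annotated, 23 are in the count table and 15 had at least 200 UMIs in the comparison at E11.5. Apart from Mir17hg none of these was at least 2-fold higher in KO E11.5, and Gpc5 alone was in KO E11.75. With 0.471% and 2.75% of all genes at least 2-fold higher, nothing is read from these counts. Dct, an enzyme of melanin synthesis, was at -1.28 and -1.07, and it was lower still in the XX control, at -2.06. The controls were further apart for Tpm3-rs7, at 69.7 CPM in XY control and 3.44 in XX control, with 62.3 in KO E11.5 and 51.5 in KO E11.75. The median of the neighbourhood was -0.02 and 0.20, close to that of all genes. Gpr180 and Tgds were at 0.17 and -0.02 in KO E11.5 and at 0.20 and 0.03 in KO E11.75.

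Mcm7, the paralog host, was abundant and level. It stood at 136 CPM in XY control (14323 UMIs), 135 in KO E11.5 (12139 UMIs), 136 in KO E11.75 (5164 UMIs) and 140 in XX control (9490 UMIs). The log2 ratios were -0.02 (-0.05 to 0.02), 0.00 (-0.04 to 0.05) and 0.04 (-0.0010 to 0.07). TMM scaling gave 0.08, -0.16 and 0.16 for the same comparisons, so the sign is not fixed. The shares of cells with a UMI at 3000 UMIs per cell were 31.7%, 31.5%, 32.3% and 33.0%. Mcm7 UMIs report the spliced host transcript and do not measure the miR-106b~25 strands shown above.

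PGCs had the highest Mcm7 in every sample. They stood at 272 CPM in XY control, 282 in KO E11.5, 353 in KO E11.75 and 233 in XX control. SLCs were at the low end at 82.8 to 94.8 CPM, and Endothelial cells were at 93.9, 101, 113 and 61.0. Of the neighbours in the XY control order, 2 of 12 pairs had intervals that did not overlap. Within types the log2 ratio over XY control lay between -0.16 and 0.31 in KO E11.5 and between -0.43 and 0.45 in KO E11.75. The interval held 0 in 9 of 12 and 7 of 11 types. For the XX control it held 0 in 5 of 12 types, with ratios from -0.62 to 0.33. Bipotential progenitors were the highest in KO E11.5, at 0.31 (0.17 to 0.46), and Interstitial cells were the lowest in KO E11.75, at -0.43 (-0.65 to -0.22).

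**Figure D5:**
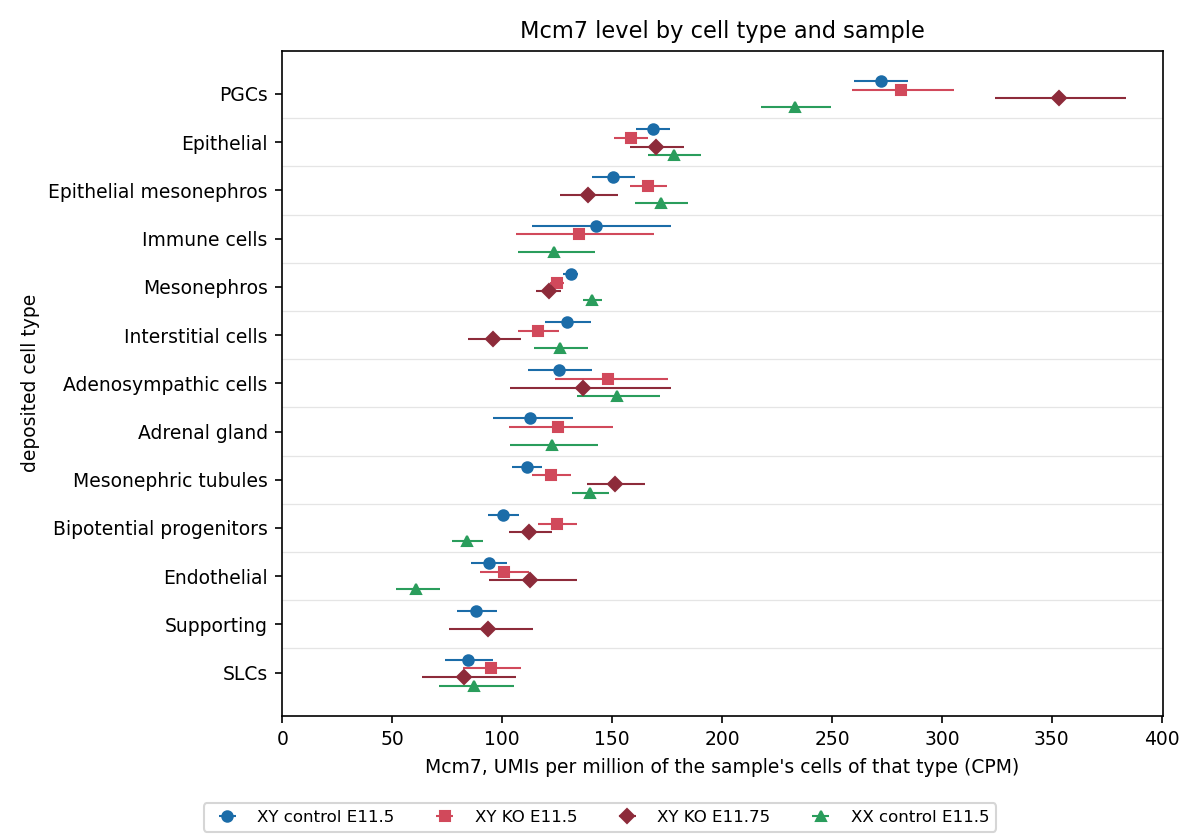
Mcm7 in each cell type and sample, in CPM on a linear axis with exact 95% Poisson intervals. PGCs are highest in all 4 samples, between 233 and 353, and control and KO samples lie close together in most other types.

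PGCs were also the highest type for most other subunits of the helicase. All 6 of Mcm2 to Mcm7 were highest in PGCs in XY control and KO E11.75, among types with at least 50 cells. In KO E11.5 the exception was Mcm3, highest in Immune cells, and in XX control it was Mcm4, highest in Interstitial cells. Over all cells the ratios of the 6 in KO E11.5 ran from -0.26 (Mcm5) to 0.00 (Mcm3), with a median of -0.17. In KO E11.75 they ran from -0.39 (Mcm5) to 0.13 (Mcm3), with a median of 0.00. Mcm7 was above the median of the other 5 in 11 of 12 types in KO E11.5 but in 5 of 11 types in KO E11.75. Over 48 sums of a cell type in a sample, which share libraries and cell types, Mcm2 had the highest r with Mcm7 among the subunits (0.82) and Mcm3 the lowest (0.63).

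MCM genes are known targets of the E2F factors, which drive the entry into S phase, and the windows from 250 bases before to 50 bases after RefSeq gene starts were searched for TTTCGCGC and TTTGGCGC, each on both strands. Either motif was in 0.813% of 32851 windows. Of the 5 MCM2-7 genes with a window, 4 held at least 1 match, namely Mcm3, Mcm5, Mcm6 and Mcm7. No match stood in the window of Mcm2 or in the further window listed for Mcm7, nor in the window of Gpc5 or in that listed for Mir17hg, which begins inside the cluster. The 4 stretches are shown because the genes encode subunits of 1 complex, with every base of a match in capitals, and a match is a description of the letters. In Mcm5 and Mcm6 the capitals hold 2 overlapping matches, 1 on each strand, and the window of Mcm6 has a further match outside the stretch.
Mcm3, minus strand, chr1:20820263-20820285: acttgggaagtTTTGGCGCcaag
Mcm5, plus strand, chr8:75109345-75109374: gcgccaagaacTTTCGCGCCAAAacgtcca
Mcm6, minus strand, chr1:128359797-128359826: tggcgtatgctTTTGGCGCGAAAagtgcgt
Mcm7, minus strand, chr5:138171849-138171878: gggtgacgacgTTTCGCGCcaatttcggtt

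The genes on either side of Mcm7 on chromosome 5 were not 2-fold from control over all cells in either KO sample. Of all genes, 0.471% were at least 2-fold higher and 2.99% lower in KO E11.5, and 2.75% and 1.44% in KO E11.75. Cops6, a subunit of the COP9 signalosome, had log2 ratios of -0.22 and -0.61 in KO E11.5 and E11.75, Ap4m1, a subunit of an adaptor complex, 0.03 and 0.41, and Taf6, a subunit of TFIID, -0.08 and 0.17. The 3′ ends of Mcm7 and Cops6 share 64 bases on opposite strands, and Ap4m1 shares 421 bases at the other end. Reads in these bases can be assigned only by strand, which the default counting of Cell Ranger uses.

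Factors known to act on the miR-17~92 promoter were measured as well. Myc, Mycn, E2f1, E2f2 and E2f3 had log2 ratios of -0.51, 0.27, 0.02, -0.22 and 0.07 in KO E11.5. In KO E11.75 they had 0.57, 0.75, 0.53, 0.36 and 0.29. None of the 5 was 2-fold from control. Of all genes, 0.471% were at least 2-fold higher and 2.99% lower in KO E11.5, and 2.75% and 1.44% in KO E11.75. The median of the 5 was 0.02 in KO E11.5 and 0.53 in KO E11.75, and that of all genes was -0.10 and 0.17.

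The machinery of miRNA processing and action, 13 genes that include Drosha and Dgcr8 of the nuclear step, Dicer1 and Ago1 to Ago4, had a median of -0.11 in KO E11.5, with 3 of 13 above 0. In KO E11.75 the median was 0.32, with 11 of 13 above 0. Of all genes, 4276 of 14023 were above 0 in KO E11.5 and 8681 of 13577 in KO E11.75. Their medians were -0.10 and 0.17, with the same signs as those of the 13 genes. Relative to the median gene, the median of the 13 stood at -0.0074 in KO E11.5 and at 0.15 in KO E11.75. Drosha was at -0.05 and 0.32, Dgcr8 at -0.30 and 0.30, and Dicer1 at -0.08 and 0.32. Ago4 was the one gene of the 13 that was 2-fold from control, at -1.10 in KO E11.5, and it was at 0.48 in KO E11.75. Beside this count, 2.99% of all genes were at least 2-fold lower in KO E11.5.

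From E11.5 to E11.75 in the KO, no member was 2-fold apart over all cells, beside 5.25% of genes higher and 0.858% lower. The log2 ratio of the later over the earlier KO sample was 0.05 for Mir17hg, 0.56 for Gpc5, 0.16 for Gpc6 and 0.02 for Mcm7, with 0.29 for the median gene. The age and the sample cannot be told apart. Within types, Mir17hg had intervals above 0 in 3 of 10 types. Its ratio was highest in Mesonephric tubules at 0.48 (0.33 to 0.62) and lowest in Epithelial mesonephros at -0.06. The median gene was at 0.21 and 0.17 in these types, and 27.8% and 65.7% of genes had a higher ratio than Mir17hg. Intervals above 0 are thus not read as a rise particular to Mir17hg. Past 2-fold were Gpc5 in Endothelial cells (2.90, on few UMIs) and Gpc6 in Endothelial cells (1.28) and SLCs (-1.13). In Endothelial cells 2.56% of genes were at least 2-fold higher, and in SLCs 1.62% were lower.

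Finally, genes whose levels were most like those of each member were ranked by Pearson's r of log2(CPM + 1) over the 48 sums, among 14901 genes. These sums share libraries and depth. For Mir17hg they were Prrc1 (0.80), Kpna6 (0.78), Tor1b (0.76), Ccm2 (0.74) and Afg3l1 (0.73). The 48 sums combine control and KO samples, so this r holds the difference between those samples as well as the order of types. All 5 genes were higher over all cells in both KO samples than in both controls. Prrc1 was at 40.8 CPM in XY control and 34.5 in XX control, and at 64.5 in KO E11.5 and 86.8 in KO E11.75. Over the 25 sums of the controls alone they were Lin28a (0.89), Fanci (0.89), Plekhg3 (0.87), B3gnt7 (0.87) and C2cd5 (0.86), and Lin28a is known as a germ cell and stem cell gene that binds let-7 precursors. For Mcm7 they were Hells (0.89), Wbp11 (0.88), Rpa2 (0.88), Supt16 (0.87) and Rcc2 (0.86). Gpc6 was most like Podxl2, Zcchc11, Ssbp2, Arhgef25 and Pard6g (0.88 to 0.89), and Gpc5 like 9230102O04Rik, Scn8a, Bmp3, Grb7 and Tmprss2 (0.77 to 0.79). Between the members, Mir17hg and Mcm7 had r = 0.80 over the 25 control sums and 0.28 over all 48, which combine control and KO samples.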

How the data were processed

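Cells, types and raw UMI counts per gene were taken from the integrated count table that the authors deposited. The authors had aligned reads to mm10 with Cell Ranger 6.1.1, filtered cells, removed doublets with DoubletFinder and integrated the samples, and the deposited values are whole numbers. Cell Ranger was run with default parameters, which count reads by strand. Counts were summed over cells per type and sample in Python 3.11.15 (numpy 2.4.6, scipy 1.17.1, pandas 2.3.3) and divided by the summed UMIs. Log2 ratios used a prior of 0.5 UMIs and exact binomial intervals, and shares of cells Clopper-Pearson intervals. Ratios needed 50 cells in both samples, and background counts needed 200 UMIs over both. Where a sample had 0 UMIs, 3 UMIs were the floor. Cells were thinned to 3000 UMIs. With 1 sample per group no test was run, and edgeR (4.0.16, R 4.3.3) gave TMM factors only. The 4 genes and the gene lists were chosen with earlier results of these data known. Named genes were the members, the lists and the 5 genes most like each member. Calculations were tested on simulated data. mm10 annotation and RefSeq tables gave positions and sequences.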

Additional observations from a re-analysis of the deposited data

Results flagged for a closer look

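For Gpc6 in 2 cell types the KO samples lay on opposite sides of the control with both counting intervals leaving out 0. The difference was not tested. Opposite signs elsewhere had at least 1 interval that held 0. The log2 ratio of Gpc6 over XY control in Mesonephric tubules was -0.22 in KO E11.5 and 0.40 in KO E11.75. In Mesonephros it was -0.11 and 0.20. Without run 1 of KO E11.5 both intervals at E11.5 held 0, with ratios of -0.10 (-0.29 to 0.09) in the tubules and 0.0032 (-0.047 to 0.053) in Mesonephros, and the tubule interval also held 0 without run 2 of the XY control. Each age is 1 sample, both share the XY control, and the median gene over all cells moved the same way, from -0.10 to 0.17. It moved from -0.09 to 0.15 in Mesonephros and from -0.08 to 0.14 in the tubules. In Mesonephros 54.5% of genes lay above Gpc6 in KO E11.5 and 44.8% in KO E11.75, so Gpc6 stood near the median gene there.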

How the results depend on the processing

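Of 620 values recomputed under other settings, 520 stayed, 91 moved and 9 reversed. A ratio moved if it left its counting interval, and it reversed if its sign also changed where that interval left out 0. Counts of types past 2-fold and of genes kept by Spearman's correlation have no such interval. For these counts a fixed fold of change was used. All-cell log2 ratios are listed below as KO E11.5 over XY control, KO E11.75 over XY control, XX control over XY control, and the later over the earlier KO. With TMM scaling Mir17hg gave 3.07, 2.86, -0.0044 and -0.21, Gpc6 0.17, 0.077, 0.31 and -0.094, and Mcm7 0.082, -0.16, 0.16 and -0.24. With it the last ratio of Gpc5 was 0.30, Mcm7 in Mesonephros of KO E11.5 was 0.018, and Gpc6 was 2-fold lower in 1 type of KO E11.75. With means of per-cell CPM, Gpc5 was 1.10 in KO E11.5, Gpc6 was 0.0086 in KO E11.5, 0.14 in XX control and 0.23 between KO ages, and Mcm7 was 0.080 in XX control and -0.038 between KO ages. With cells of at least 5000 UMIs, Gpc5 was 0.27, 1.01 and -0.59, Gpc6 0.32, 0.34, 0.53 and 0.023, and Mcm7 -0.056 in KO E11.5, -0.075 in XX control and 0.083 between KO ages. With cell types weighted as in XY control, Mir17hg was 0.093 between KO ages, Gpc5 was -0.57 in XX control, and Gpc6 was -0.11 in KO E11.5, 0.13 in XX control and 0.33 between KO ages. With mitochondrial, ribosomal protein, globin and similar technical genes taken out of the totals, the ratio between KO ages was -0.0055 for Mir17hg, 0.11 for Gpc6 and -0.033 for Mcm7. Leaving out 1 run, Gpc6 ran from -0.067 (without run 2 of KO E11.5) to 0.19 (without run 1) in KO E11.5, from 0.15 to 0.23 in XX control and from 0.045 to 0.30 between KO ages, and Mcm7 ran from -0.00071 to 0.076 in XX control. Within types, where leaving out runs was chosen after seeing the data, Gpc6 ran from -0.24 to 0.0032 in Mesonephros of KO E11.5 and from -2.34 to 0.20 in Immune cells of XX control. Outside the tubules Gpc5 was 3.41 and 3.79, a setting chosen after seeing the data. For thinned shares of cells, 5000 UMIs gave 0.44 for Gpc5 in KO E11.5, 0.26, 0.23, 0.37 and -0.029 for Gpc6, and -0.041 and -0.056 for Mcm7 in KO E11.75 and between KO ages, while 2000 UMIs gave 0.19 and 0.16 for Gpc6 in KO E11.75 and between KO ages. The cause of these moves was not tested. By Spearman's correlation 3, 0, 0 and 1 of the 5 genes most like Mir17hg, Gpc5, Gpc6 and Mcm7 stayed in the list, and 3 of 5 for Mir17hg in the controls.

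No paired analysis was possible because each group was 1 sample.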
